A study of Mus musculus with 8 samples.

Results

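Yolk sacs at embryonic day 9.5 were compared between mouse embryos in which Notch signaling was switched on in the endothelium and embryos in which it was removed, and the genes described here moved the same way in both. All 8 arrays of the series were used, 4 from the set with Notch1 activation (EC-N1ICD) and 4 from the set with Rbpj loss (EC-Rbpj-KO). For each gene the log2 signal of the mutant minus that of the wild type was taken within its own set, and the mean of both changes was tested across 10913 genes in 1 limma fit of 4 groups. A gene was called for the mean where its Benjamini-Hochberg adjusted p was under 0.05. It was called shared where, in addition, each cross alone had an unadjusted p under 0.05 in the same direction. Of the 10913 genes, 360 were shared, 186 of them higher in both mutants (1.7% of the genes tested) and 174 lower in both (1.59%).

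EC-N1ICD embryos carried the genotype Tie2 Tg/0; ROSA +/N1ICD on a C57BL6 background, and their wild type arrays came from Tie2 0/0; ROSA +/+ embryos. EC-Rbpj-KO embryos were Tie2-Cre; Rbpj flox/flox on a mixed background, and the genotype of the wild type embryos of that set is not stated. Each group held 2 arrays of whole yolk sac RNA, and nothing in the sample descriptions states that each array was a separate embryo. A p-value here therefore covers only how far such arrays differ, which may be technical. The EC-Rbpj-KO arrays held RNA of different sexes, as given below, so at least these did not repeat 1 sample. The Tie2 promoter drives Cre recombinase in endothelial cells and also in blood lineages. Both mutants carried Tie2-Cre and the wild type embryos of the EC-N1ICD set did not, so an effect of the Cre transgene itself cannot be told apart from a response shared by the mutants. The replicate 1 mutant array of each set has a name that opens with a different number from the other 3 arrays of its set, and the meaning of that number is not stated.

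Notch receptors are cut after they bind a ligand on a neighboring cell, and the freed intracellular domain (N1ICD for Notch1) enters the nucleus, where it binds RBPJ and turns on target genes such as Hey1, Heyl and Nrarp. The yolk sac is the first site of blood and vessel formation in the embryo. Its endothelium lies between a layer of visceral endoderm, which takes up and secretes nutrients and plasma proteins, and a layer of mesoderm that gives rise to mural cells. At this age a simple capillary plexus is reshaped into larger vessels, blood begins to flow, and the first red cells, megakaryocytes and macrophages are present. Gain and loss of a signal may move its direct targets in opposite directions, though not every target need respond so. Genes that moved the same way with both are described here as a set of their own. Whether they are direct targets was not tested.

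As a check of the labels, Rbpj gave signals of 470 and 497 after its deletion against 984 and 919 in the matching wild type, and of 776 and 1013 in EC-N1ICD against 915 and 887. Hey1 had wild type signals of 147 and 103 next to 319 and 298 in EC-N1ICD, then 72 and 70 next to 66 and 69 in EC-Rbpj-KO. Rbpj was therefore lower on both arrays of its knockout and Hey1 higher on both arrays with activated Notch1. Hey1 signals in EC-Rbpj-KO were close to those of wild type, whereas the study reports Hey1 as reduced there on its arrays and by RT-PCR. Array medians ran from 38 to 51, and correlations of log2 signals within a group from 0.9764 to 0.9872. The ratio of 3' to 5' signal of Actb, a sign of RNA quality, was lower in EC-N1ICD than in its wild type (1.719 and 1.752 against 2.096 and 2.337) and higher in EC-Rbpj-KO (2.294 and 2.089 against 1.903 and 1.84), so it moved in opposite directions in the crosses. The same ratio of Gapdh was 2.435 and 2.481 in EC-N1ICD (wild type 3.118 and 2.758) and 4.64 and 3.449 in EC-Rbpj-KO (wild type 3.168 and 3.507), where replicate 1 stood apart. Genes of visceral endoderm plasma proteins summed to signals of 123887 to 163274 on every array, and 11 to 14 of 17 neural and somite genes of the embryo proper lay under the array median on each.

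Sex was not balanced over the groups. Xist, the RNA of the inactive X chromosome, was measured at 3600 and 3730 in EC-N1ICD, where wild type gave 96 and 96, and at 2005 and 84 in EC-Rbpj-KO, where wild type gave 90 and 77. Eif2s3y, a Y-linked gene, had signals in EC-N1ICD of 9 and 9 (wild type 702 and 837) and in EC-Rbpj-KO of 12 and 827 (wild type 870 and 864). EC-N1ICD replicates 1 and 2 and EC-Rbpj-KO replicate 1 thus held female RNA, the other 5 arrays male RNA, and these genes lead the shared lists in each direction. Within the EC-N1ICD set sex and genotype cannot be told apart. A term for sex in the fit is estimated from EC-Rbpj-KO replicate 1 against replicate 2 alone, arrays that also differ in the first number of their names. Of the 360 shared genes, 11 lay on the X and 1 on the Y chromosome. The share of these chromosomes among all genes tested was not counted, so these numbers show neither an excess nor a lack.

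Called for the mean change were 300 genes higher (2.75% of those tested) and 318 lower (2.91%). Of these 618 genes, 607 had the same sign in both crosses and 11 had opposite signs. A call for the mean can rest on 1 cross: 205 of the 618 had an unadjusted p under 0.05 in EC-Rbpj-KO alone and 53 in EC-N1ICD alone, and the other 360 are the shared genes. Among the shared genes, 63 of the 186 higher and 47 of the 174 lower moved at least 2-fold in the mean. In 357 of the 360, all mutant arrays lay beyond both wild type arrays of their set in the same direction, as did 1777 of all genes tested (16.28%), whereas in 675 genes (6.185%) the mutants lay beyond wild type in opposite directions. The change was larger in EC-Rbpj-KO than in EC-N1ICD for 242 of the 360 genes. Across all genes tested the changes in both crosses correlated with Pearson's r of 0.3651, given as a description, since genes are not independent replicates.

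**Figure D1:**
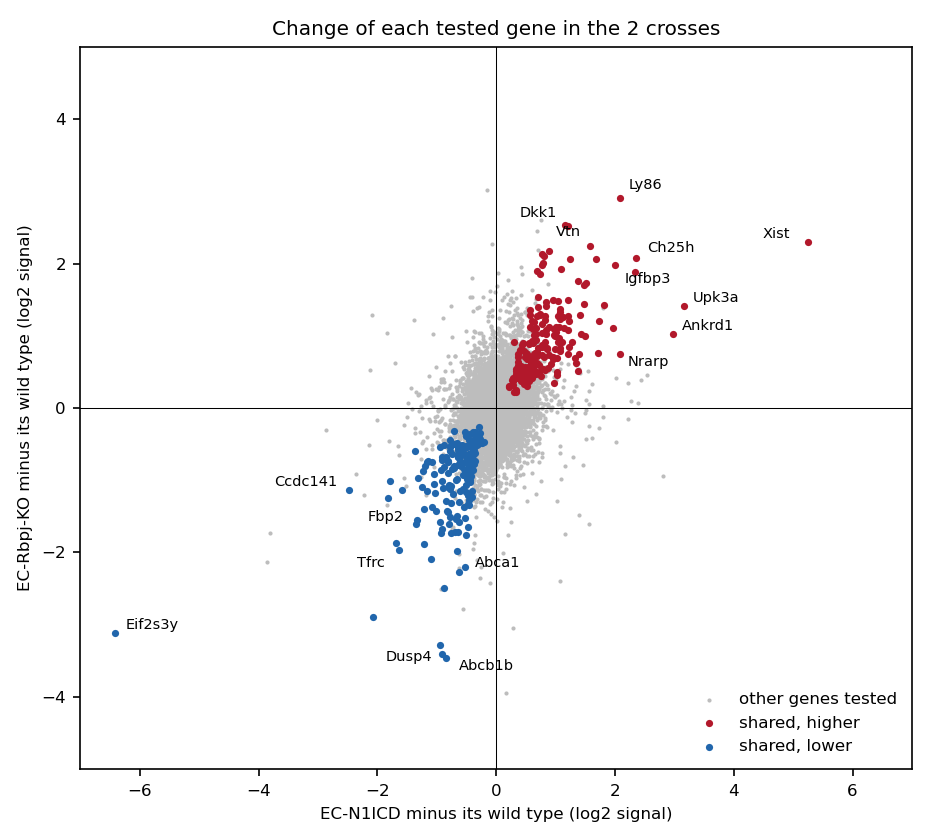
The change of each of 10913 tested genes in EC-N1ICD (horizontal axis, log2 signal minus that of its wild type) against its change in EC-Rbpj-KO (vertical axis). Red points are the 186 genes shared and higher, blue points the 174 shared and lower, grey points all others, and Xist and Eif2s3y at the far ends mark the sex of the embryos.

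Single crosses gave fewer calls in EC-N1ICD (65 genes, 0.596%) than in EC-Rbpj-KO (541 genes, 4.96%). With an adjusted p under 0.05 required in each cross, 21 genes were called in the same direction, 14 higher and 7 lower, and 2 in opposite directions. The 21 made up 32.31% of the EC-N1ICD calls and 3.882% of the EC-Rbpj-KO calls. The 14 higher were Cdkn1c, Ch25h, Ddr1, Enpep, Gadd45b, Gstm3, Igfbp3, Iyd, Ly86, Nrarp, Slc5a4b, Trp53i11, Upk3a and Vtn. The 7 lower were C730049O14Rik, Fbp2, Mfsd4b5, Nudt4, Rnase4, Sgk2 and Tfrc. The difference between the changes was called for 29 genes (0.266%), and 14 genes were called both for the mean and for the difference, 11 of them with the same sign in both crosses.

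Among the genes highest in both mutants were secreted proteins. Igfbp3, which binds insulin-like growth factors outside the cell, had wild type signals of 261 and 234 next to 985 and 981 in EC-N1ICD, then 272 and 241 next to 1260 and 818 in EC-Rbpj-KO. Vtn, the matrix and plasma protein vitronectin, gave signals of 276 and 269 against 84 and 100, and of 1438 and 1760 against 379 and 297. Dkk1, a secreted inhibitor of Wnt signaling, gave signals of 96 and 86 against 46 and 36, and of 240 and 139 against 30 and 33. For all 3 genes both mutant arrays of each set lay above both wild type arrays without overlap. Igfbp3 rose 3.98-fold with Notch1 activation and 3.97-fold with Rbpj loss, a mean change of 1.99 on the log2 scale (standard error 0.15, adjusted p = 8.56e-05 from limma), the most even response of the leading genes. Vtn rose by a mean of 1.91 (standard error 0.14, adjusted p = 8.56e-05), with folds of 2.97 and 4.74. Dkk1 rose by a mean of 1.85 (standard error 0.23, adjusted p = 0.00123), with folds of 2.23 and 5.81. Its wild type signals in both sets lay under the array median, where background limits the size of a fold. Dkk1 was tested only because its mutant signals were high.

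Enzymes and membrane proteins made up much of the rest of the leading rises. Ch25h, which makes 25-hydroxycholesterol, was measured at 127 and 130 in EC-N1ICD, where wild type gave 33 and 19, and at 136 and 101 in EC-Rbpj-KO, where wild type gave 25 and 31. Upk3a, a uroplakin of urothelial plaques, gave signals of 751 and 495 against 89 and 52, and of 278 and 166 against 91 and 72. Iyd, the iodotyrosine deiodinase, gave signals of 280 and 154 against 53 and 32, and of 170 and 134 against 64 and 26. Every mutant signal of these genes was more than the highest wild type signal of its set. The wild type signals of Ch25h and Iyd all lay under 67.88, the lower limit on the mean signal for testing. Both were tested only because their mutant signals were high. Their mean changes were 2.22 for Ch25h (adjusted p = 0.000783), 2.29 for Upk3a (adjusted p = 0.00049) and 2.11 for Iyd (adjusted p = 0.003). Ppp1r3c, a glycogen-targeting subunit of protein phosphatase, rose by a mean of 1.86 (adjusted p = 0.00269), and Ankrd1, an ankyrin repeat protein of muscle, rose (adjusted p = 0.00285) with folds of 7.89 and 2.03, the latter in EC-Rbpj-KO, where its signals of 40 and 21 were close to the wild type signals of 12 and 17.

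The leading falls held transporters, a receptor and signaling regulators. Tfrc, the transferrin receptor that brings iron into cells, had signals in EC-N1ICD of 1121 and 2333 (wild type 4425 and 5779) and in EC-Rbpj-KO of 535 and 807 (wild type 2691 and 2470). Fbp2, an isoform of the gluconeogenic enzyme fructose-bisphosphatase, gave signals of 385 and 321 against 1590 and 972, and of 553 and 581 against 1375 and 1310. Fcgr3, a low-affinity receptor for IgG, gave signals of 514 and 355 against 741 and 1121, and of 293 and 338 against 1322 and 1366. All 4 mutant arrays lay under both wild type arrays of their set for these genes. Tfrc fell by 1.81 on the log2 scale in the mean (standard error 0.21, adjusted p = 0.000887), and its signals were 3.13-fold and 3.92-fold lower than wild type in the crosses. Fbp2 fell by 1.53 (adjusted p = 0.00049) and Fcgr3 fell by 1.59 (adjusted p = 0.00049). Abcb1b, an efflux transporter of the multidrug resistance family, gave signals of 340 and 195 against 386 and 556, and of 114 and 183 against 1662 and 1509, so that its mean fall of 2.15 (adjusted p = 0.000446) came mostly from EC-Rbpj-KO. Plekha6, a pleckstrin homology domain protein, fell by 2.16 (adjusted p = 0.000534) with signals 1.88-fold and 10.6-fold lower. Of the 24 leading genes, 10 had other probe sets on the array, and 16 of these 19 probe sets had the same sign of the mean change.

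**Figure D2:**
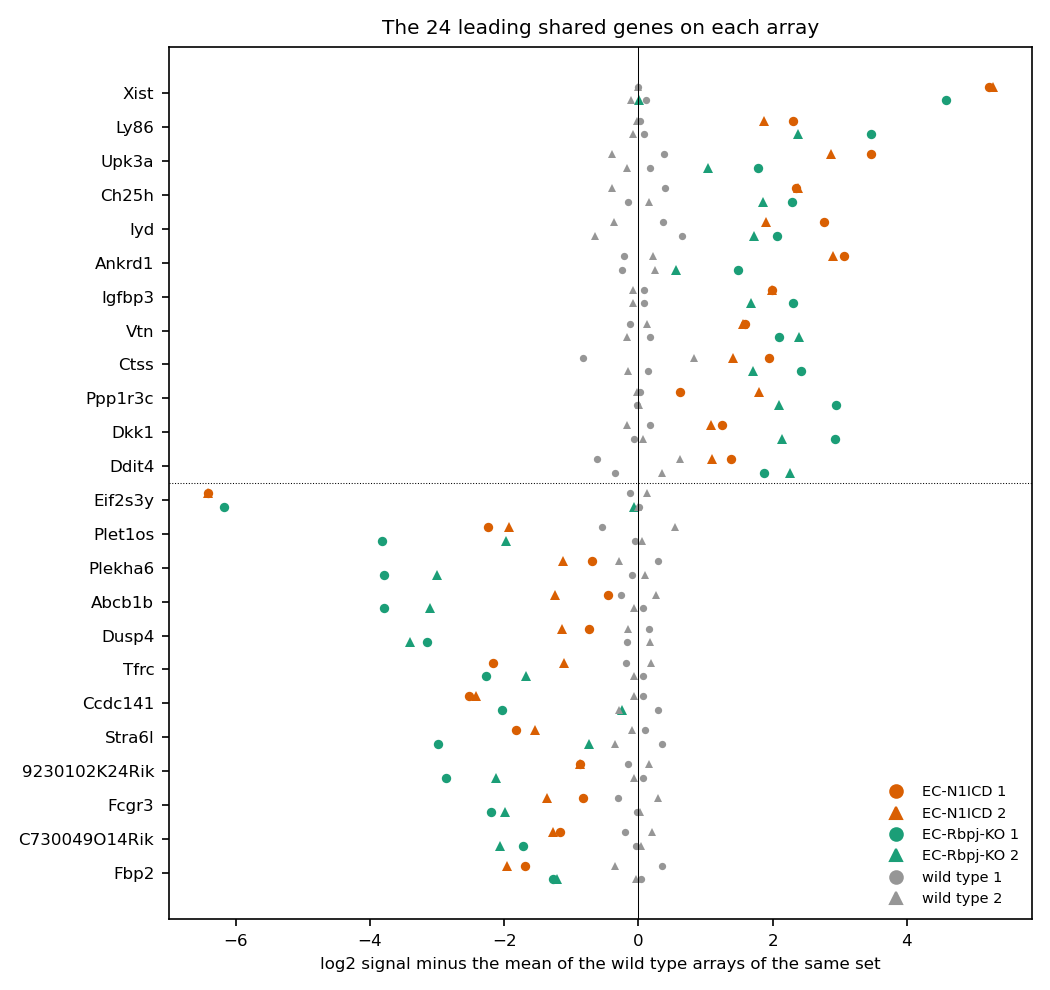
The 12 shared genes that rose most and the 12 that fell most in the mean change, with each of the 8 arrays plotted as its log2 signal minus the wild type mean of its set. Orange marks are EC-N1ICD, green marks EC-Rbpj-KO and grey marks wild type, with circles for replicate 1 and triangles for replicate 2, and for Xist and Eif2s3y the EC-Rbpj-KO replicate 2 array lies with wild type.

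Fewer genes were called when sex was a term in the fit and when the replicate 1 mutant arrays were left out, and the cause was not tested. The median change of the 186 higher genes was 0.718 and 0.6861 in EC-N1ICD, 0.8744 on the female and 0.7115 on the male array of EC-Rbpj-KO. For the 174 lower genes it was -0.6354 and -0.5734 in EC-N1ICD, -0.8382 on the female and -0.7972 on the male EC-Rbpj-KO array. With sex as a term in the fit, the median of the mean change moved from 0.8138 to 0.651 for the higher and from -0.7397 to -0.7126 for the lower genes, and the median standard error over all genes rose from 0.138 to 0.2283. Under that fit 23 of the 360 were still called for the mean, and over all genes 20 were called higher and 71 lower. Without both replicate 1 mutant arrays, which leaves 6 arrays, 164 of the 360 were still called. The genes had been chosen for 1 direction on these same arrays, so their sign in either fit is not evidence.

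The 23 genes called with and without the term for sex held 9 that rose and 14 that fell. Those that rose were Ddr1, a collagen receptor kinase, Epb41l3, a membrane skeleton protein, Gadd45b, a stress-induced adaptor, Gstm3, a glutathione transferase, Igfbp3, Lpar3, a lysophosphatidic acid receptor, Nexn, an actin-binding protein, Nrarp and Vtn. Those that fell included the MAP kinase phosphatases Dusp4 and Dusp6, the cholesterol exporter Abca1, the kinases Sgk1 and Sgk2, the tryptophan dioxygenase Tdo2, and Ly96, a partner of toll-like receptor 4. The other falls were C730049O14Rik, Depdc7, Fbp2, Gcnt2, Gt(ROSA)26Sor, Mfsd4b5 and Rab30. Sgk2, a serum and glucocorticoid regulated kinase, had wild type signals of 581 and 783 next to 231 and 302 in EC-N1ICD, then 2709 and 2522 next to 987 and 750 in EC-Rbpj-KO. Sgk1 gave signals of 782 and 875 against 1832 and 1068, and of 81 and 59 against 209 and 251. These related kinases fell by 1.48 (adjusted p = 0.00049) and by 1.24 (adjusted p = 0.00292), and with sex as a term by 1.77 (adjusted p = 0.0146) and by 1.59 (adjusted p = 0.0488). Gt(ROSA)26Sor is the transcript of the locus that carries the N1ICD cassette in EC-N1ICD, where it gave signals of 149 and 143 against 305 and 383, and in EC-Rbpj-KO, where no cassette is named, it gave signals of 241 and 121 against 239 and 407.

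**Figure D3:**
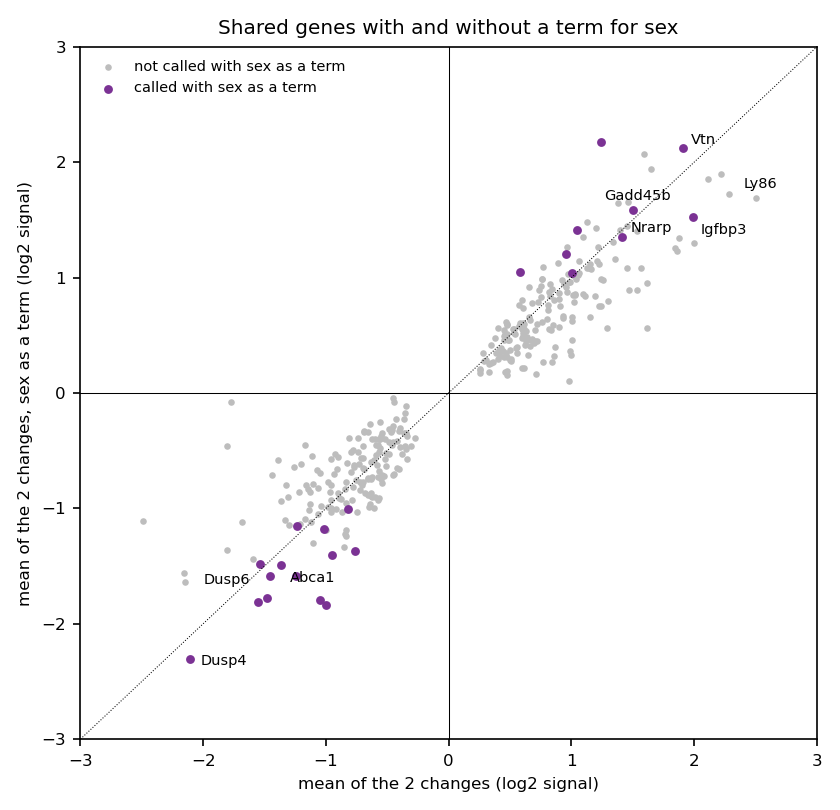
Mean of the changes in both crosses for 358 shared genes (all but Xist and Eif2s3y), from the fit of 4 groups (horizontal axis, log2 signal) and from the fit with sex as a further term (vertical axis). Purple points are the 23 genes called in both fits and grey points the rest.

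Gene lists of yolk sac functions were then read for the mean change, with 717 of 950 listed genes tested in 47 lists. Each list is described by its calls and its median, beside 2.75% of genes called higher, 2.91% called lower and a median of -0.005855 over all genes tested. A gene that is low in wild type could be tested only where the mutants raised its mean, as 215 of all tested genes, 32 of the 186 shared higher and 0 of the shared lower genes were. In bulk tissue, fewer cells of a type and less RNA per cell cannot be told apart.

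**Figure D4:**
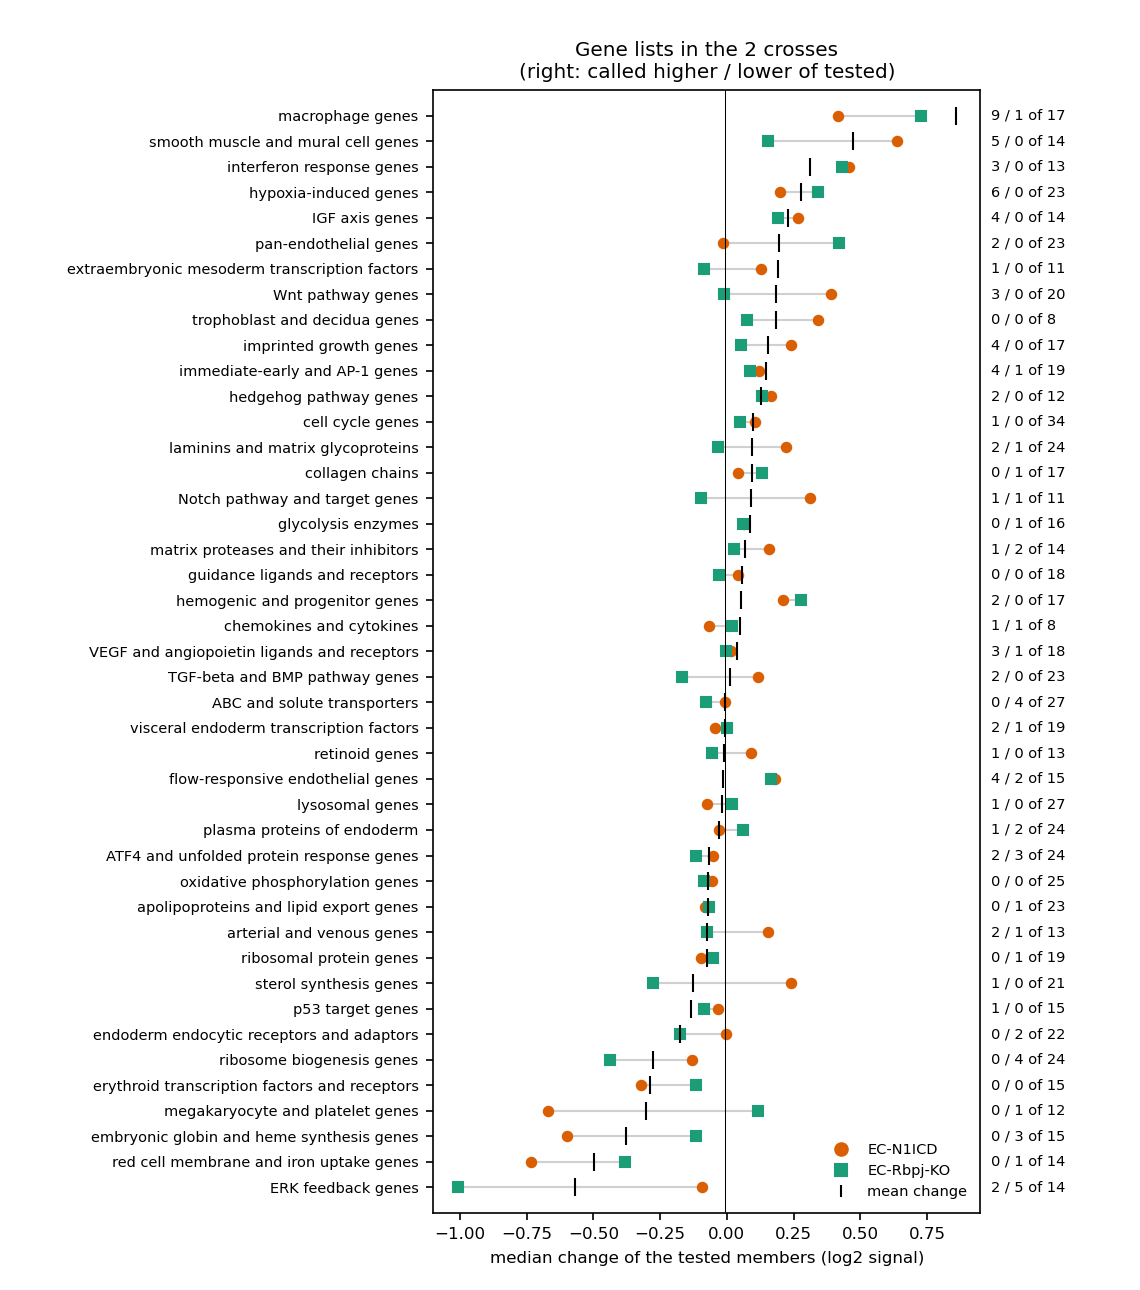
Median change of the tested members of 43 lists of textbook functions (those with 8 or more), in EC-N1ICD (orange circles) and EC-Rbpj-KO (green squares) and for the mean change (black ticks), in log2 signal. The counts at the right are members called higher and lower for the mean of those tested, and macrophage genes lie at the top and ERK feedback genes at the bottom.

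Of 17 tested macrophage genes 9 rose and 1 fell, with a median mean change of 0.86. Of the 9 that rose, 7 (Adgre1, C1qb, Ctss, Cx3cr1, Ly86, Ptprc and Tyrobp) had a wild type mean signal under 67.88, the lower limit for testing, and were tested only because the mutant signals were higher, so these counts are a description. Over all 25 listed members, with no lower limit on signals, 10 rose, 1 fell and the median was 0.57. In that fit 307 of all 18194 genes were called higher and 269 lower. Ly86, a surface partner of a toll-like receptor homolog, was measured at 136 and 101 in EC-N1ICD, where wild type gave 28 and 27, and at 302 and 142 in EC-Rbpj-KO, where wild type gave 29 and 26. Csf1r, the receptor for the macrophage growth factor, gave signals of 1293 and 995 against 671 and 730, and of 2497 and 1935 against 965 and 599. Adgre1, which encodes the F4/80 antigen, gave signals of 141 and 103 against 35 and 53, and of 156 and 187 against 85 and 47. Mutant and wild type signals did not overlap in either set for these genes. Ly86 rose by a mean of 2.50 (standard error 0.26, adjusted p = 0.00049), Csf1r by 1.11 (standard error 0.16, adjusted p = 0.00292) and Adgre1 by 1.46 (adjusted p = 0.00587). Ctss, a lysosomal protease of antigen-presenting cells, Cx3cr1, the fractalkine receptor, C1qb of the complement system, Ptprc, Tyrobp and Laptm5 rose as well, Cx3cr1, C1qb and Laptm5 with an unadjusted p under 0.05 in 1 cross only.

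The macrophage list did not move as 1 unit. Fcgr3 fell, and Cd68, the lysosomal glycoprotein, had a mean change of -0.62 (adjusted p = 0.052) and Cd14, a receptor for bacterial lipopolysaccharide, of -0.68 (adjusted p = 0.0765). Spi1, the transcription factor of the lineage, had a mean change of 0.06 and Fcer1g, an adaptor of Fc receptors, of 0.02. Signals over the 25 listed genes summed to 15622 and 13619 in EC-N1ICD (wild type 12399 and 12636) and to 11087 and 10893 in EC-Rbpj-KO (wild type 10803 and 10883), of which Lgmn alone gave 4473 to 11178. Genes of the list under the array median numbered 6 and 8 in EC-N1ICD (wild type 12 and 8) and 3 and 5 in EC-Rbpj-KO (wild type 8 and 9). None of the 17 was called with sex as a term, and the median was then 0.52. Without both replicate 1 mutant arrays 3 rose, 1 fell and the median was 0.70.

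Interferon response genes had 3 of 13 tested members higher and none lower, with a median of 0.31. Ifit3 among them was tested only because its mutant signals were high, and 10 members lay below the limit on signals. Over all 23 members with a probe set and no such limit, 8 rose (Ifih1, Ifit1, Ifit3, Oasl2, Usp18, Ifitm3, Psmb9 and Gbp2), none fell and the median was 0.59. In that fit 307 of all 18194 genes were called higher and 269 lower. Ifit3, an interferon-induced antiviral protein, had signals in EC-N1ICD of 197 and 128 (wild type 38 and 54) and in EC-Rbpj-KO of 122 and 66 (wild type 37 and 30). Ifih1, a sensor of viral double-stranded RNA, gave signals of 421 and 302 against 122 and 96, and of 145 and 115 against 77 and 75. Ifitm3, a membrane protein that restricts viral entry, gave signals of 555 and 520 against 394 and 301, and of 340 and 268 against 207 and 156. None of these mutant signals overlapped with wild type. The mean changes were 1.62 for Ifit3 (adjusted p = 0.00504), 1.24 for Ifih1 (adjusted p = 0.00249) and 0.69 for Ifitm3 (adjusted p = 0.0235). Other genes known to be induced by interferon were found among the shared rises after their values were seen, including Parp9 (mean change 1.26), Dtx3l (1.21), Rtp4 (1.22), Trim30a (1.15), Gbp7 (0.93), Ifi27 (0.93) and Samhd1 (0.48). No member of the list was called with sex as a term, and its median was then 0.22.

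The promoter of Ifit3 is shown because it carries, in front of the start, repeats of the element through which interferon acts. Sequences are those of RefSeq on GRCm38.p6 and run over 250 bases up to the start. The element was searched as TTTCNNTTTC on both strands, and its matches, in capitals, begin 156 and 122 bases before the start of Ifit3, at chr19:34583279-34583528 on the plus strand.

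Ifit3: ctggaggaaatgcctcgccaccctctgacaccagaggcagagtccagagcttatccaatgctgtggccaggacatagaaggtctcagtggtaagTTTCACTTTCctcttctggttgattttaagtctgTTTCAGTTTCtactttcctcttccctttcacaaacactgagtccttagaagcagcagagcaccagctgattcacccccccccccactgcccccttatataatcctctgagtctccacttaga

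The element was found in 9 of 142 promoters of shared higher genes with an entry (6.34%), in 3.68% of those of shared lower genes and in 2.9% of 8871 promoters of tested genes. Of the 3 interferon genes that rose, Ifit3 alone held it in this window. A match is a description of letters and not of a bound site.

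Of 23 tested hypoxia-induced genes 6 rose (26.1%) and none fell, with a median of 0.28. Ddit4, an inhibitor of mTORC1 made under low oxygen, had wild type signals of 64 and 150 next to 255 and 209 in EC-N1ICD, then 112 and 183 next to 523 and 685 in EC-Rbpj-KO. Adm, the vasodilator peptide adrenomedullin, gave signals of 418 and 475 against 275 and 278, and of 683 and 348 against 151 and 113. Ndrg1, a growth-arrest protein, gave signals of 523 and 337 against 264 and 240, and of 2175 and 1377 against 475 and 483. All of these mutant signals lay above both wild type signals of their set, by more in EC-Rbpj-KO. Ddit4 rose by a mean of 1.65 (standard error 0.26, adjusted p = 0.00395), Adm by 1.29 (standard error 0.20, adjusted p = 0.00374) and Ndrg1 by 1.30 (standard error 0.17, adjusted p = 0.00205). P4ha2, a collagen prolyl hydroxylase, Pfkfb3, an activator of glycolysis, and Egln1, the oxygen-sensing hydroxylase, rose by 0.58, 1.09 and 0.44. Pfkfb3 and Egln1 were called for the mean but were not shared, each with an unadjusted p over 0.05 in EC-N1ICD, and Pfkfb3 was tested only because its mutant signals were high. Vegfa, the main angiogenic target of hypoxia, had a mean change of 0.04 (adjusted p = 0.911) and the glucose transporter Slc2a1 of 0.27 (adjusted p = 0.0535). With sex as a term none of the 23 was called while the median was 0.40, and without both replicate 1 mutant arrays 3 rose and the median was 0.39. Glycolysis enzymes, many of them also targets of hypoxia, had 0 of 16 higher and 1 lower.

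The Ddit4 promoter is shown for the core of the hypoxia response element, searched as ACGTG on both strands. It holds 1 match, in capitals, that begins 187 bases before the start, at chr10:59951771-59952020 on the minus strand.

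Ddit4: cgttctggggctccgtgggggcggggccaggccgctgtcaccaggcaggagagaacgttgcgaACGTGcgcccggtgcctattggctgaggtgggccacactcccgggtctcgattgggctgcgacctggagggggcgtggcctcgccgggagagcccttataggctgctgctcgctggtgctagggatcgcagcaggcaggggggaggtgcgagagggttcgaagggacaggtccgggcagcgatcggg

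Of the 6 hypoxia-induced genes that rose, 5 had a promoter entry and 4 of these (80%) held ACGTG. It was held by 25.6% of all promoters, 27 of 142 of those of shared higher genes and 24.3% of those of shared lower genes. The list was made of known hypoxia-induced genes, so a high share can follow from that choice alone. Its members that did not rise were not counted, and the share is no evidence about these arrays.

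The adrenomedullin receptor moved against its ligand. Calcrl, the receptor chain for adrenomedullin on endothelium, was measured at 555 and 449 in EC-N1ICD, where wild type gave 919 and 829, and at 181 and 181 in EC-Rbpj-KO, where wild type gave 528 and 455. Neither mutant overlapped with wild type, and Calcrl fell by 1.12 in the mean (standard error 0.13, adjusted p = 0.000783). Pgf, a ligand of the VEGF receptor Flt1, gave signals of 232 and 234 against 136 and 127, and of 109 and 120 against 92 and 68. Pgf rose by 0.68 (adjusted p = 0.0333) and was not called with no lower limit on signals. The study's own array values also gave Pgf higher in both mutants, whereas its RT-PCR gave Pgf lower than wild type in EC-Rbpj-KO. Apln, a peptide of endothelial tip cells, rose by 0.91 (adjusted p = 0.00823) with an unadjusted p under 0.05 in EC-Rbpj-KO only. In all, 3 of 18 VEGF and angiopoietin ligands and receptors rose and 1 fell, with a median of 0.04.

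Endothelial genes as a whole were not among the shared calls. Of 23 pan-endothelial genes 2 were called higher, Sox17 and Cldn5, both from EC-Rbpj-KO, and none was shared. Their median change was -0.01 for EC-N1ICD and 0.42 for EC-Rbpj-KO. Flow-responsive endothelial genes had 4 of 15 higher and 2 lower, with a median of -0.01. Gja4, the connexin 37 of arterial endothelium, had signals in EC-N1ICD of 137 and 104 (wild type 260 and 174) and in EC-Rbpj-KO of 36 and 46 (wild type 121 and 98). It fell by 1.13 (adjusted p = 0.00944). Plat, the tissue plasminogen activator, Cav1, the coat protein of caveolae, and Esm1, a proteoglycan of tip cells, rose by 0.85, 1.03 and 1.62. Of these, Esm1 was tested only because its mutant signals were high.

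ERK feedback genes, which are induced by growth factor signaling through ERK and then restrain it, had the lowest median of the lists drawn at -0.57. Of 14 tested members 5 fell (35.7%) and 2 rose. Dusp6, a phosphatase that inactivates ERK, had wild type signals of 451 and 440 next to 310 and 266 in EC-N1ICD, then 522 and 515 next to 114 and 101 in EC-Rbpj-KO. Dusp4, a nuclear phosphatase of the same family, gave signals of 220 and 166 against 411 and 328, and of 36 and 30 against 283 and 358. Spry1, an inhibitor of receptor tyrosine kinase signaling, gave signals of 328 and 330 against 703 and 480, and of 602 and 563 against 1208 and 1269. The fall was seen on all 4 mutant arrays for each of these genes. In the mean Dusp6 fell by 1.45 (standard error 0.13, adjusted p = 0.000193), Dusp4 by 2.11 (standard error 0.17, adjusted p = 9.94e-05) and Spry1 by 0.95 (adjusted p = 0.00256). Etv5, an ETS factor downstream of FGF signaling, fell by 1.17 (adjusted p = 0.00123), and Spred2 fell by 1.21 (adjusted p = 0.000783) with an unadjusted p of 0.115 in EC-N1ICD.

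For this list the falls were larger in EC-Rbpj-KO, with a median of -1.01 against -0.10 in EC-N1ICD. The list medians on the EC-N1ICD arrays (-0.10 and -0.12) lay between those on their wild type arrays (0.15 and -0.15). The difference between the crosses passed the test for Dusp4, Dusp6 and Spred2. With sex as a term Dusp4, Dusp6 and Spred2 were still called lower and the median was -0.90, and without both replicate 1 mutant arrays 5 fell, 1 rose and the median was -0.64. The members that rose, Egr1 and Ier3, also belong to the immediate-early list. Egr1, a zinc finger factor, was measured at 237 and 310 in EC-N1ICD, where wild type gave 123 and 142, and at 249 and 111 in EC-Rbpj-KO, where wild type gave 83 and 93. It rose by 0.98 (adjusted p = 0.0325).

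Immediate-early and AP-1 genes had 4 of 19 higher and 1 lower, with a median of 0.14. Gadd45b had signals in EC-N1ICD of 228 and 282 (wild type 125 and 114) and in EC-Rbpj-KO of 664 and 714 (wild type 177 and 185). Jun, a subunit of AP-1, gave signals of 266 and 342 against 70 and 119, and of 226 and 133 against 70 and 80. Myc, a driver of growth and ribosome production, gave signals of 328 and 330 against 626 and 441, and of 260 and 179 against 431 and 430. Gadd45b and Jun were higher on all mutant arrays and Myc lower on all. Gadd45b rose by 1.51 (standard error 0.13, adjusted p = 0.000211), Jun rose by 1.47 (standard error 0.22, adjusted p = 0.00371) and Myc fell by 0.84 (standard error 0.16, adjusted p = 0.0122). Gadd45b alone of the list was called with sex as a term.

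Ribosome biogenesis genes had 4 of 24 lower (16.7%), none higher and a median of -0.28. Of the 24, 19 were negative in both crosses, as were 3300 of all 10913 genes tested. The genes that fell were Ddx21, an RNA helicase of the nucleolus (-0.58, adjusted p = 0.0289), Rrs1 (-0.46, adjusted p = 0.011) and Wdr12 (-0.46, adjusted p = 0.0401), factors of large subunit assembly, and the nucleolar GTPase Gnl3 (-0.36, adjusted p = 0.0189), all but Rrs1 shared. Changes were small in EC-N1ICD, with a median of -0.13 against -0.44 in EC-Rbpj-KO. None of the 24 was called with sex as a term, where the median was -0.33. Ribosomal protein genes themselves had 1 of 19 lower, Rpl27, and a median of -0.07.

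Iron and heme genes were lower in the mean with values that turned on single arrays. Heme synthesis and globin genes had 3 of 15 lower and a median of -0.38, and red cell membrane and iron uptake genes had 1 of 14 lower, Tfrc, and a median of -0.50. Slc25a37, the mitochondrial iron importer mitoferrin, had wild type signals of 1761 and 1390 next to 281 and 961 in EC-N1ICD, then 1715 and 1179 next to 530 and 788 in EC-Rbpj-KO. Fam210b, a mitochondrial protein of red cell maturation, gave signals of 343 and 450 against 681 and 546, and of 298 and 401 against 1023 and 1040. Cpox, an enzyme late in heme synthesis, gave signals of 283 and 396 against 675 and 510, and of 425 and 553 against 840 and 782. All 3 genes were lower on every mutant array than on its wild type arrays, and Slc25a37 fell by 1.36 (adjusted p = 0.027), Fam210b by 1.11 (adjusted p = 0.00186) and Cpox by 0.78 (adjusted p = 0.0154).

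The low medians of both lists came mostly from the replicate 1 mutant arrays. The median of the red cell membrane and iron list was -1.46 for replicate 1 of EC-N1ICD and -0.10 for its replicate 2, with -0.73 and 0.02 for replicates 1 and 2 of EC-Rbpj-KO. Slc4a1, the anion exchanger of the red cell membrane, was measured at 449 and 2559 in EC-N1ICD, where wild type gave 3976 and 2835, and at 685 and 1499 in EC-Rbpj-KO, where wild type gave 1802 and 1181. Its mean change of -1.09 missed the test (adjusted p = 0.176), as did that of Hbb-bh1, an embryonic beta globin (-0.40, adjusted p = 0.0844). Without both replicate 1 mutant arrays the median of the list was -0.03, and Tfrc still fell by 1.40 (adjusted p = 0.000507). The median of the red cell list was -0.01 and no member was called with sex as a term. For the heme and globin list the median was -0.83 and -0.23 on replicates 1 and 2 of EC-N1ICD. On replicates 1 and 2 of EC-Rbpj-KO it was -0.32 and -0.03. It was -0.15 without both replicate 1 mutant arrays. With sex as a term it was also -0.15, and no member of that list was called.

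**Figure D5:**
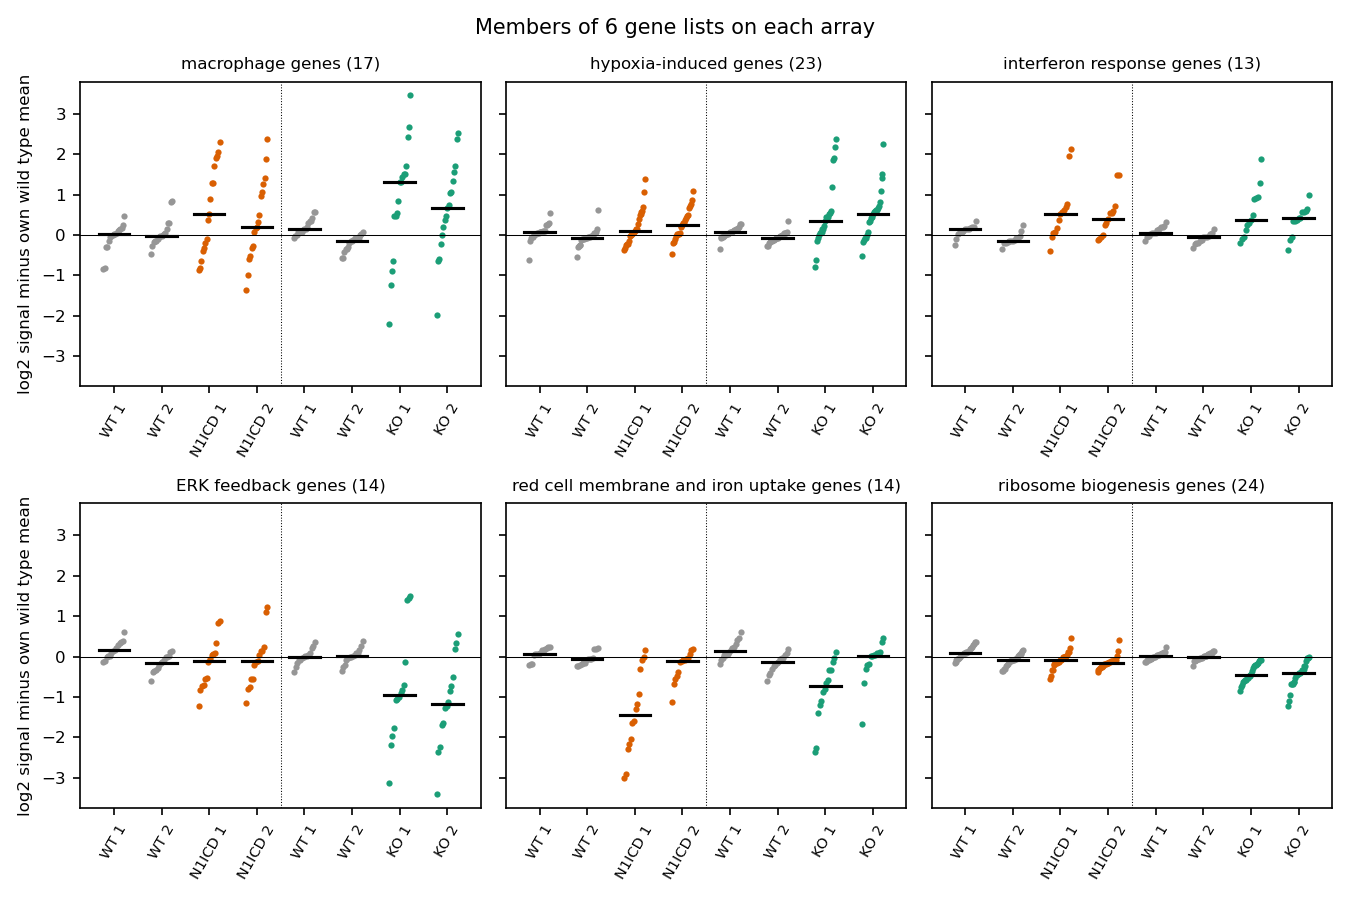
Tested members of 6 gene lists on each of the 8 arrays, as log2 signal minus the wild type mean of the same set, with wild type in grey, EC-N1ICD in orange and EC-Rbpj-KO in green. Each point is 1 gene, sorted within an array, and black bars are medians, which for red cell genes lie at -1.46 and -0.73 on the replicate 1 mutant arrays and at -0.10 and 0.02 on the replicate 2 mutant arrays.

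Growth factor and morphogen genes rose in small numbers. Of 14 genes of the IGF axis 4 rose, Igfbp3, Igfbp5, Igfbp1 and Igf1, none fell, and the median was 0.23. Igfbp5 had signals in EC-N1ICD of 596 and 801 (wild type 397 and 288) and in EC-Rbpj-KO of 826 and 1117 (wild type 708 and 648), and it rose by 0.77 (adjusted p = 0.017). Igfbp1 and Igf1 rose by 0.83 each (adjusted p = 0.00676 and 0.0191), with an unadjusted p under 0.05 in EC-Rbpj-KO only. Of 20 Wnt pathway genes 3 rose and none fell. These were the ligand Wnt4 (mean change 1.01, adjusted p = 0.00166) and the secreted or membrane-bound inhibitors Dkk1 and Apcdd1 (1.10, adjusted p = 0.00587). Of 12 hedgehog pathway genes the receptor component Smo and the coreceptor Gas1 rose, by 0.54 and 0.57. Of 17 imprinted growth genes 4 rose and none fell, led by the cell cycle inhibitor Cdkn1c with signals of 5914 and 5924 against 3944 and 4081, and of 13823 and 11372 against 7471 and 8084. Cdkn1c rose by 0.63 (standard error 0.08, adjusted p = 0.00121), by 1.48-fold and 1.61-fold, and it was the only one of 34 cell cycle genes called.

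Smooth muscle and mural cell genes had 5 of 14 higher, none lower and a median of 0.47. Tagln, which binds actin in smooth muscle, had wild type signals of 783 and 981 next to 2728 and 2454 in EC-N1ICD, then 486 and 476 next to 620 and 515 in EC-Rbpj-KO. Acta2, smooth muscle actin, gave signals of 14640 and 13687 against 7480 and 8684, and of 2112 and 3314 against 2316 and 2411. The rise was plain in EC-N1ICD and small or absent in EC-Rbpj-KO, where the Acta2 signals straddled wild type. Of the 5, Cnn2 and Tpm2 were shared, with mean changes of 0.51 and 0.52. Of 17 listed cardiac sarcomere genes 12 lay below the limit on signals, and of the other 5, 3 were called higher, Ankrd1, Actc1 and Tnnc1. Ankrd1, the one that was shared, was tested only because its mutant signals were high, and with no limit on signals the median of all 17 was 0.43.

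Visceral endoderm lists had few calls each. Plasma proteins of endoderm had 1 of 24 higher and 2 lower, with a median of -0.03, apolipoproteins and lipid export genes had 1 of 23 lower, and visceral endoderm transcription factors had 2 of 19 higher, Foxa1 and Sox17, and 1 lower, Ppargc1a, of which Foxa1 was shared. Rnase4, a secreted ribonuclease, was measured at 3299 and 4218 in EC-N1ICD, where wild type gave 7467 and 7917, and at 3327 and 4594 in EC-Rbpj-KO, where wild type gave 7837 and 8351. Plg, plasminogen, gave signals of 1233 and 1319 against 1922 and 2122, and of 2378 and 2906 against 5215 and 5217. Abca1 gave signals of 770 and 899 against 1168 and 1236, and of 685 and 610 against 3054 and 2891. Each of these fell without overlap in either set, Rnase4 by 1.05 (standard error 0.11, adjusted p = 0.000534), Plg by 0.83 (adjusted p = 0.000997) and Abca1 by 1.36 (standard error 0.11, adjusted p = 9.94e-05). Among 22 endocytic receptors and adaptors Fcgrt, the neonatal Fc receptor, fell by 0.69 (adjusted p = 0.00676) beside Tfrc. Among 27 ABC and solute transporters 4 fell, Abcb1b, Abcb1a, Slc39a8, a zinc and manganese importer (-0.90, adjusted p = 0.000783), and Slc38a2, an amino acid transporter (-0.52, adjusted p = 0.0431), and none rose, with all but Slc38a2 shared.

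Among other functions, ATF4 and unfolded protein response genes had 2 of 24 higher, Ddit4 and Vldlr, and 3 lower, Atf4, Trib3 and Xbp1. All but Trib3 were shared, and the median was -0.07. The rest had 0 to 3 calls each. Oxidative phosphorylation genes had 0 of 25 called (3 with an unadjusted p under 0.05) and a median of -0.07. Guidance ligands and receptors had 0 of 18 (2 with an unadjusted p under 0.05). Erythroid transcription factors and receptors had 0 of 15 (6 with an unadjusted p under 0.05). Over all 10913 genes tested, 2317 had an unadjusted p under 0.05 for the mean. Lysosomal genes had 1 of 27 higher, Ctsf, which was tested only because its mutant signals were high. Collagen chains had 1 of 17 lower, Col13a1, and laminins and matrix glycoproteins 2 of 24 higher, Vtn and Fbln1, and 1 lower, Emilin1.

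Of 11 tested Notch pathway and target genes Nrarp alone was a shared call, while 3 of the 11 had positive and 1 had negative changes in both crosses. Over all 10913 genes tested, 3184 had positive and 3300 negative changes in both. Nrarp, a feedback inhibitor that Notch induces, had signals in EC-N1ICD of 3112 and 2648 (wild type 735 and 628) and in EC-Rbpj-KO of 1598 and 1514 (wild type 855 and 1001). It was higher on all 4 mutant arrays, 4.22-fold with Notch1 activation and 1.68-fold with Rbpj loss, with a mean rise of 1.41 (standard error 0.11, adjusted p = 9.94e-05). The difference between the crosses also passed the test (1.33 on the log2 scale, adjusted p = 0.042). Hey1 had a mean change of 0.63 (adjusted p = 0.0567), from changes of 1.32 and -0.07. Rbpj, the deleted gene, was the one member called lower for the mean.

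The promoter of Ch25h is shown as a leading shared gene that holds the RBPJ motif, searched as GTGGGAA on both strands. Its match, in capitals, begins 81 bases before the start, at chr19:34475149-34475398 on the minus strand.

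Ch25h: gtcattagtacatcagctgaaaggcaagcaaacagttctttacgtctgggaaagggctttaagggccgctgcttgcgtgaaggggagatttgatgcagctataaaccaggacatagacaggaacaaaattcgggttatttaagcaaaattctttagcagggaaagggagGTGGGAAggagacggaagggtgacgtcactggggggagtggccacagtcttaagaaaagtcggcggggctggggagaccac

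GTGGGAA was found in 6.34% of promoters of shared higher genes, 5.88% of those of shared lower genes and 6.11% of all promoters of tested genes. Its core TGGGAA, which every full match contains, was found in 24.6%, 16.9% and 23.2%.

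The study itself named classes of genes that may go up or down while the vessels are reshaped, and it chose them on the same samples, so their counts are no independent evidence of direction. Of 9 tested genes of its class of possible upregulation during remodeling, none was higher and 6 fell, with a median of -1.13: Adamts4, Calml4, Col13a1, Gja4, Nudt4 and Rnase4. The names Calcr1 and Tfric of this class match no symbol among the genes tested and are not in the count, and if they stand for Calcrl and Tfrc, both of these fell as given above. Calml4, related to calmodulin, had wild type signals of 473 and 729 next to 67 and 96 in EC-N1ICD, then 1128 and 916 next to 957 and 710 in EC-Rbpj-KO, so its mean fall of 1.59 (adjusted p = 0.000811) came from EC-N1ICD. Nudt4, a diphosphoinositol polyphosphate phosphatase, gave signals of 818 and 1239 against 2565 and 2425, and of 1098 and 1230 against 2616 and 1974, and fell by 1.14 (adjusted p = 0.00139). All 6 genes of the class of possible downregulation, Ch25h, Dhtkd1, Dkk1, Esm1, Ier3 and Igfbp3, rose, with a median of 1.73. Of these, Ch25h, Dkk1 and Esm1 were tested only because their mutant signals were high, so they could be called in no other direction. Esm1 was measured at 111 and 72 in EC-N1ICD, where wild type gave 34 and 29, and at 390 and 147 in EC-Rbpj-KO, where wild type gave 102 and 51. With sex as a term 1 gene of each class was called, Calml4 and Igfbp3, and the medians were -0.98 and 1.34. Ankrd1 and Apcdd1 stand in a further class of the study, positive regulation by Notch and Rbpj. For that class the study reads a rise with Notch1 activation but a fall with Rbpj loss. Here both genes were shared and rose in each cross, Ankrd1 in EC-Rbpj-KO from low signals (40 and 21 against 12 and 17). The reason for this difference from the study was not tested, and the other genes of that class were not counted.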

How the data were processed

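RNA of whole E9.5 yolk sac was hybridized to 8 single-channel Affymetrix arrays, 2 per group, and samples were grouped by source name, title and genotype. The deposited value is 1 linear signal intensity per probe set and array, made by the authors with MAS5 according to the submitters' processing notes (version and scaling not given in the sources used here), with no detection calls in the table. The design text names the 430A array, whereas the table holds 45101 probe sets. Trimmed means differed between arrays (319.1 to 384), so scaling was varied as an alternative.

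Probe sets of several genes (932) or of none (9211) were left out, which kept 34958. Symbols of 34754 of these were updated through their gene ID. Several probe sets were present for 9012 of 18194 genes, and the one with the highest mean signal was used. Genes with a mean signal over the 40th percentile (68 or more) were tested, 10913 in all. The fit on log2 signals used limma 3.58.1 under R 4.3.3 (lmFit with 4 group means, eBayes with trend, 4 residual and 7.37 prior degrees of freedom). Two-sided p-values of the mean of both changes, of each change and of their difference were adjusted with Benjamini-Hochberg. Arrays with a signal of Xist over 500 were taken as female. The number of arrays limits the precision, and background limits the fold of genes with low signals: 30 shared genes had both signals of a group under the array median.

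The genes described and the gene lists were chosen with earlier results of these data known. Genes were named by a rule: the 12 shared genes that rose most and the 12 that fell most, per list up to 4 members of smallest p, the study's remodeling classes and check genes. Called members of a list are also named where their list is described, and the 23 genes called with sex as a term and the 21 called in both crosses were named after their values were seen. Promoters of 8871 tested genes were matched by symbol in RefSeq (GRCm38.p6), and the motifs for hypoxia and interferon were chosen after the gene lists were read. The scripts were tested on simulated data. Alternatives covered the constant added to signals, the filter, the probe set rule, scaling, the trend, the methods' t-test (not moderated, on the same 4 groups), sex as a term, and arrays left out.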

Additional observations from a re-analysis of the deposited data

Results flagged for a closer look

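The change differed between the crosses for 7 of the named genes that were called for the mean, by a test of the difference itself in the same fit (the log2 change in EC-N1ICD minus that in EC-Rbpj-KO). For Abcb1b the difference was 2.61 (adjusted p = 0.0366), for Dusp4 2.33 (adjusted p = 0.0235), for Spred2 1.77 (adjusted p = 0.0335), for Abca1 1.67 (adjusted p = 0.0185) and for Dusp6 1.64 (adjusted p = 0.0309), all of them genes with the larger fall in EC-Rbpj-KO. The change of Spred2 in EC-N1ICD did not pass the test (unadjusted p = 0.115). Nrarp, higher in both, differed by 1.33 (adjusted p = 0.042), with the larger rise in EC-N1ICD. Calml4 differed by -2.57 (adjusted p = 0.0205), with the larger fall in EC-N1ICD. Of these 7 genes, Abca1, Abcb1b, Dusp4, Dusp6 and Nrarp are shared genes, so a shared direction went with an unequal size. The EC-N1ICD set is of a C57BL6 strain with female mutants and the EC-Rbpj-KO set of a mixed strain with mutants of both sexes, and the part of strain or sex in these differences was not tested.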

How the results depend on the processing

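The number of calls depended on the setting, and the cause was not tested. Genes called higher and lower for the mean, shared higher and lower, called in EC-N1ICD, in EC-Rbpj-KO and for the difference numbered 300, 318, 186, 174, 65, 541 and 29. They were 20, 71, 19, 67, 15, 614 and 71 with sex as a term. Without both replicate 1 mutant arrays they were 108, 198, 72, 83, 26, 431 and 17. By the methods' t-test after Benjamini-Hochberg they were 1, 7, 1, 7, 0, 14 and 0, and at its unadjusted threshold 943 higher and 945 lower genes were called for the mean, 1123 in EC-N1ICD, 1804 in EC-Rbpj-KO and 1019 for the difference. With the 60th percentile filter 185 were higher, 109 shared higher and 27 called in EC-N1ICD. Quantile normalization gave 465 higher and 118 in EC-N1ICD, and median centring 106 in EC-N1ICD. Without the trend 200 were lower and 3 called for the difference, and with the mean of all probe sets 11. Requiring an adjusted p in both crosses left 14 and 7. Leaving out 1 array gave 106 to 348, 112 to 496, 70 to 206, 61 to 207, 7 to 140, 147 to 628 and 5 to 80, with the fewest shared genes without EC-N1ICD replicate 1, and a lone array was assumed to vary like the other groups. Of the 24 leading genes 0 were called in every one of 18 settings. Kdm5d and Uty, Y-linked, were the only named genes whose mean turned, to 0.80 and 0.49 with sex as a term. Over named genes and alternatives, 2649 values kept their side of the threshold, 566 were no longer called and 78 became called. Of the list medians, 689 moved by less than the spread between arrays and 156 by more. No paired analysis was possible because the replicate numbers were given in accession order and pair no mutant with a wild type sample.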
